A study of Homo sapiens with 8 samples.

Results

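Among the regions that opened after SMARCB1 was restored in G401 cells and stayed open for a week, some lay in runs along the chromosome, and these runs are described here. The regions were chosen by their peak calls and their spacing. Peaks of the 4 deposited lists were merged where they overlapped by at least 1 bp. A merged region with peaks on days 1, 3 and 7 and none on day 0 was counted as a sustained gain. Sustained gains no more than 10 kb apart were joined, and the members are those in chains of 3 or more. There were 1750 members in 530 chains, out of 19074 sustained gains and 146099 merged regions. Since the calls on all 4 days set the choice, the presence of peaks in members, their gain from day 0 and their closeness are a description of the choice and were not tested.

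ATAC-seq marks open chromatin by letting a transposase cut and tag accessible DNA. G401 is an established rhabdoid tumour line, and its SMARCB1 gene is lost. The derivative used here carries SMARCB1 under doxycycline control and was grown in tetracycline-free serum. Cells without the drug (day 0, labelled SMARCB1 -/-) were set against cells given 1 µg/ml doxycycline for 1, 3 or 7 days (labelled SMARCB1 +/+), with 2 replicates in each of 4 groups. All groups share the engineered line, so day 0 cells hold the silent transgene too, and no group received the drug without the transgene. The day 0 list was identified by elimination, because its name holds no day, which all comparisons with day 0 assume. The labels do not say whether replicates were separate cultures, and each day has 1 peak list, so no value below carries a replicate error or a p-value. In bulk chromatin a summit that is higher because more cells are open there cannot be told apart from one that is cut more often in each open cell.

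SMARCB1 is a core subunit of SWI/SNF, a complex that slides and ejects nucleosomes with the energy of ATP and is needed to keep many enhancers accessible. Enhancers are short stretches of regulatory DNA bound by transcription factors. Where several lie close together they are often described as enhancer clusters, a kind of domain found near genes that define a cell's identity. AP-1, a dimer of FOS and JUN family proteins, binds many enhancers and is known to work with SWI/SNF. Genes and base sequence at the chains were not analysed here, because the reference at hand belongs to another genome build than the hg19 of the peak lists. Positions are hg19, counted from 1.

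Height is given as the scaled summit, the reads at a region's highest summit on a day divided by the genome-wide background of that day's list. That background, a measure of depth, was 6.34, 6.04, 6.73 and 6.10 reads on days 0, 1, 3 and 7. The weakest peak held 18, 16, 17 and 18 reads, or 2.84, 2.65, 2.53 and 2.95 times background. A region without a day 0 peak may therefore have had some cutting below that limit. Intervals in brackets are 95% intervals for counting error or for shares of regions taken as independent draws, and do not cover the spread between replicates. Members of the same chain are not independent of each other, so the intervals for shares are too narrow.

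Most chains were short. Chains of 3 numbered 402, chains of 4 numbered 107, chains of 5 numbered 12, chains of 6 numbered 7 and chains of 7 numbered 2. Of all 15854 groups of sustained gains, 13324 were single regions and 2000 were pairs. Sustained gains were 13.1% of all merged regions, and 9.17% of sustained gains were members. The median chain spanned 12.9 kb, with quartiles of 9.52 and 16.2 kb, the shortest 1.91 kb and the longest 38.2 kb. Neighbours within a chain were a median of 4.88 kb apart, and gaps ranged from 0.02 to 9.96 kb. Members themselves took up a median of 17.3% of the span, so most chains were separate islands along the DNA. A member was a median of 635 bp wide, against 629 bp for sustained gains alone or in pairs, and 1658 of 1750 members held exactly 1 peak on each induced day. At the joining limit, 261 gaps of 9 to 10 kb were joined and 289 gaps of 10 to 11 kb were not. The regions on either side of these gaps had median day 3 summits of 8.62 and 8.70.

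Nearness between sustained gains was compared with other regions of the same chromosome, width class and height class, with all merged regions cut into 5 equal classes by each measure. Another sustained gain lay within 10 kb of 30.2% of sustained gains. The share was 20.9% of the 127025 other merged regions, and 21.0% once these were weighted to the chromosomes, widths and heights of the sustained gains, a ratio of 1.44. Against the 60786 regions with a peak on every day the weighted share was 17.6% and the ratio 1.71. The difference was wider at short range: within 1 kb the shares were 5.53% and 2.78%, a ratio of 1.99, and within 100 kb they were 87.1% and 80.8%, a ratio of 1.08. A region open on every day, by contrast, lay within 10 kb of 44.8% of sustained gains and of 53.1% of the weighted other regions. Against weighted regions on every day the share was 49.4% and the ratio 0.906, with ratios of 0.992 within 50 kb and 1.00 within 100 kb. Sustained gains were thus nearer to each other than other regions of like width and height. Fewer of them had always open chromatin within 10 kb, a difference that was smaller against regions on every day. These are differences of shares and carry no test, because the same peak calls defined the regions. The weighting also does not equalise how many lists held a peak, which the reference of regions on every day does for the induced days.

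**Figure D1:**
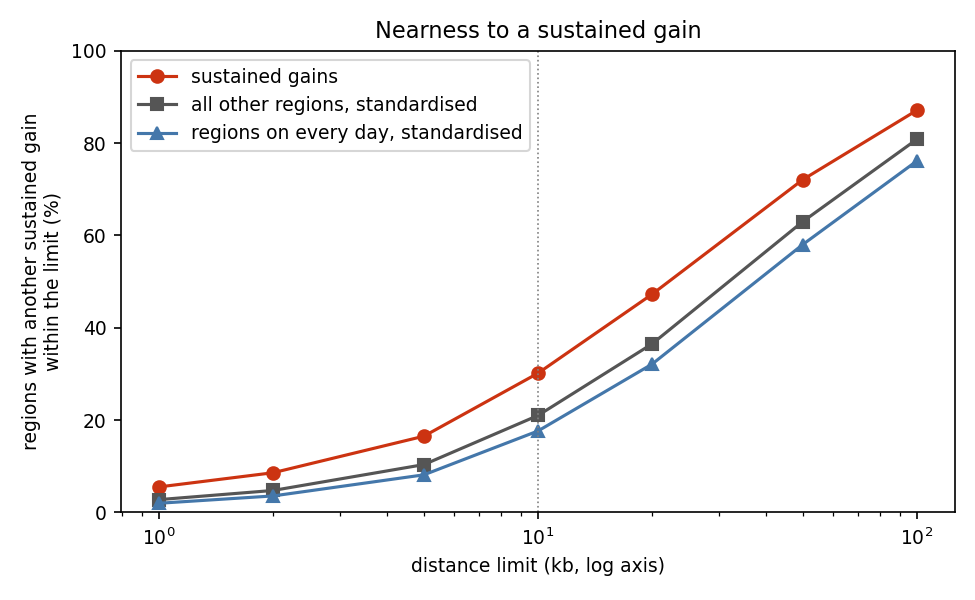
Share of regions with another sustained gain within a distance limit, from 1 to 100 kb on a log axis, for sustained gains and for other regions weighted to the same chromosomes, width classes and height classes. The dotted line marks the 10 kb limit, where sustained gains stand at 30.2% and the 2 weighted references at 21.0% and 17.6%.

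Members also lay farther from chromatin that was open at the start. The nearest region with a day 0 peak was a median of 11.8 kb from a member and 8.67 kb from a sustained gain alone or in a pair. A day 0 peak lay within 10 kb of 765 of 1750 members (43.7%) and of 54.5% of those alone or in pairs. With the latter weighted to the members' chromosomes, widths and heights the share was 58.4%. In chains of 4 or more the share was 38.2%. Of the 530 chains, 407 (76.8%) held no region with a day 0 peak in their span, 87 held 1, 27 held 2 and 9 held 3. For 208 chains there was none within 10 kb of either end as well, and for 41 none within 50 kb. Around the 407 chains without a day 0 peak, the stretch free of such peaks had a median length of 58.2 kb.

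The spans added up to 7024 kb. In 288 chains (54.3%) the span held members alone. The other spans held 381 further regions, 168 of them with a day 0 peak and 213 without. The latter were gains missing from at least 1 induced day. They included 58 on day 3 alone, 51 on days 1 and 3, 38 on days 3 and 7 and 34 on day 7 alone. These were 2.72%, 2.39%, 1.78% and 1.60% of the 2131 regions inside spans. Of all merged regions such patterns were 9.73%, 5.60%, 4.55% and 5.27%. Regions open on every day were 5.02% of those inside spans and 41.6% of all merged regions. The members' own number lowers each of these shares inside spans. The 107 regions inside spans that were open on every day had median summits of 8.67, 12.1, 11.3 and 10.5 times background on days 0, 1, 3 and 7, and 10, 13 and 5 of them were at least 2-fold above day 0 on days 1, 3 and 7. Among all regions open on every day the medians were 11.04, 12.7, 11.6 and 11.3. The shares at least 2-fold higher inside the spans were 9.35%, 12.1% and 4.67%, against 3.89%, 4.02% and 2.22% of all such regions. The always open neighbours of a chain thus had a lower median on day 0 than such regions at large, and more of them were at least 2-fold higher later.

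Median summits on days 1 and 3 were higher the more regions a chain held, and on day 7 they were the same in chains of 4 and of 5 or more. Members had median scaled summits of 7.78 on day 1, 9.52 on day 3 and 7.21 on day 7, from a lowest of 2.98, 2.82 and 3.11 to a highest of 27.6, 28.4 and 21.3. In reads the medians were 47, 64 and 44. Sustained gains alone had medians of 6.29, 7.58 and 6.23, pairs 7.12, 8.47 and 6.72, chains of 3 7.61, 9.37 and 7.05, chains of 4 7.94, 9.81 and 7.38, and chains of 5 or more 8.11, 10.2 and 7.38. The quartiles of these groups overlapped widely. The share of sustained gains that were members went from 4.64% (3.99 to 5.36) in the lowest of 5 equal classes by height to 13.5% (12.4 to 14.6) in the highest. By width there was no such slope, with 7.73% in the narrowest class, 9.05% in the middle and 9.23% in the widest.

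**Figure D2:**
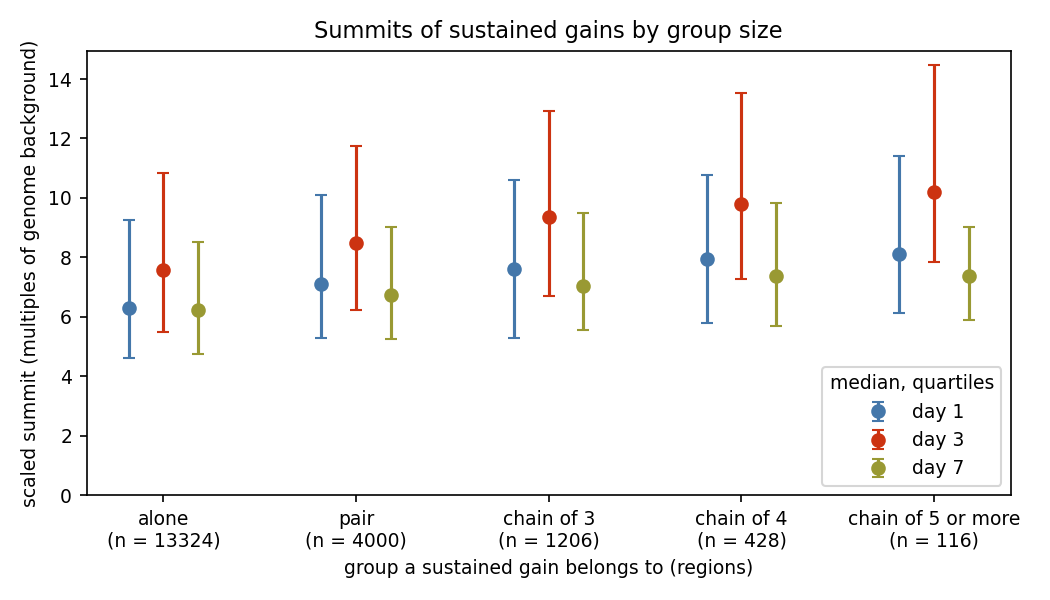
Scaled summit, in multiples of the genome-wide background, of sustained gains by the size of the group they belong to, for days 1, 3 and 7. Points are medians and bars run from the lower to the upper quartile over regions. The day 3 median goes from 7.58 for single regions to 10.2 in chains of 5 or more.

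The authors' fold, which divides a summit by its local background, ordered these groups differently. On day 3 the median fold was 4.37 for single gains, 4.14 for pairs, 4.14 for chains of 3 and 4.08 for chains of 4 or more. On days 1 and 7 the members' medians were 3.83 and 3.66, against 3.83 and 3.79 for gains alone or in pairs. The local background itself was higher in longer chains, with day 3 medians of 1.47 times the genome-wide background for single gains, 2.01 in chains of 3 and 2.54 in chains of 5 or more. A window of local background can hold the neighbouring members of a chain. A fold of at least 6 was reached on day 3 by 283 members (16.2%) and by 21.6% of gains alone or in pairs. On that scale members were therefore not the stronger regions.

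By scaled summit, day 3 was the highest of the induced days for most members. It was the highest in 1199 of 1750 members (68.5%, 66.3 to 70.7), day 1 in 354 and day 7 in 197. Among all sustained gains the share highest on day 3 was 58.5%. It was 56.1% for single gains, 62.2% for pairs, 66.1% in chains of 3 and 73.9% in chains of 4 or more. Gains alone or in pairs stood at 57.5%, and at 60.9% when weighted to the members' chromosomes, widths and heights, which left a difference of 7.55 percentage points. In 5 classes of sustained gains by height, lowest first, the share was 42.9%, 59.3%, 62.5%, 77.2% and 80.0% of members. Among the others it was 37.7%, 54.8%, 61.0%, 66.5% and 69.4%, so the difference was uneven and small in the middle class. By the authors' fold the order turned: day 3 was the highest in 47.5% of members and in 52.5% of those alone or in pairs.

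The steps between days had the same shape. From day 1 to day 3 the median log2 step of scaled summits was 0.24 in members (SD over regions 0.38) and 0.18 in gains alone or in pairs (SD 0.39). From day 3 to day 7 it was -0.38 (SD 0.36) against -0.27 (SD 0.37). Counting error of a single member's step had a median standard error of 0.28 on the log2 scale for the first step and 0.29 for the second, close to the steps themselves. A day 7 summit below that of day 3 was seen in 1485 members (84.9%), against 77.3% of all sustained gains. A day 3 summit above that of day 1 was seen in 1347 members (77.0%). Of all sustained gains 69.3% were higher and 30.7% lower on day 3 than on day 1. On the scale of fold the members' median steps were 0.06 and -0.14, smaller than the 0.10 and -0.16 of gains alone or in pairs.

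Calls at a fixed limit of 1.5-fold were compared with all merged regions that had a peak on both days. On day 3, 357 members (20.4%) were at least 1.5-fold higher than on day 1, against 4.15% of all such regions and 16.9% of gains alone or in pairs. Only 7 members (0.4%) were at least 1.5-fold lower, against 1.86% of all and 1.09% of gains alone or in pairs. On day 7, 446 members (25.5%) were at least 1.5-fold lower than on day 3. The shares were 6.08% of all and 19.5% of gains alone or in pairs. Another 13 members (0.743%) were higher, against 1.21% of all and 0.895% of gains alone or in pairs. From day 1 to day 7, 135 members (7.71%) were higher and 252 (14.4%) lower, against 2.42% and 6.04% of all regions. Of gains alone or in pairs, 8.53% were higher and 11.5% lower. Few regions open on every day passed this limit, and those that did were more often lower on the later day. On day 3, 0.466% were higher and 1.88% lower than on day 1. On day 7, 0.984% were higher and 2.14% lower than on day 3, and 0.599% were higher and 4.48% lower than on day 1. Without a limit, day 1 was the highest induced day in 67.3% of regions open on every day, day 3 in 15.1% and day 7 in 17.6%. The members' shares thus lay nearer to those of other sustained gains than to those of always open regions.

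Summed over a chain, the reads allow a narrower interval. The summed summits were highest on day 3 in 424 of 530 chains (80.0%), on day 1 in 82 and on day 7 in 24. The median chain stood at 1.19 times its day 1 level on day 3, with quartiles of 1.05 and 1.36, and the range was 0.683 to 2.55. On day 7 the median chain was at 0.767 of day 3, with quartiles of 0.689 and 0.855 and a range of 0.438 to 1.44. Day 7 was at 0.906 of day 1 in the median chain. The interval of day 7 over day 3 lay below 1 in 336 chains and above 1 in 2. That of day 3 over day 1 lay above 1 in 235 chains and below 1 in 2. These intervals are not adjusted for the number of chains. By the authors' fold the median chain was at 1.04 of day 1 on day 3 and at 0.897 of day 3 on day 7. Of the 336 chains with an interval below 1 for day 7 over day 3, 327 were below 1 by fold too, against 459 of all 530 (86.6%). Of the 235 with an interval above 1 for day 3 over day 1, 203 (86.4%) were above 1 by fold, against 365 of all 530 (68.9%). Chains of exactly 3 were set beside 5636 triples of successive sustained gains 10 to 100 kb apart, which overlap one another. The chains held more reads, with median summed summits of 145, 199 and 137 on days 1, 3 and 7 against 137, 176 and 127, and more reads give narrower intervals. The median ratio, which does not depend on the width of intervals, was 1.18 in chains of 3 and 1.13 in triples for day 3 over day 1, and 0.772 and 0.804 for day 7 over day 3. The interval of day 7 over day 3 lay below 1 in 58.2% of the chains and 46.8% of the triples, and above 1 in 2 chains and in 0.0887% of the triples. That of day 3 over day 1 lay above 1 in 41.5% of the chains and 26.8% of the triples, and below 1 in 2 chains and in 0.94% of the triples.

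**Figure D3:**
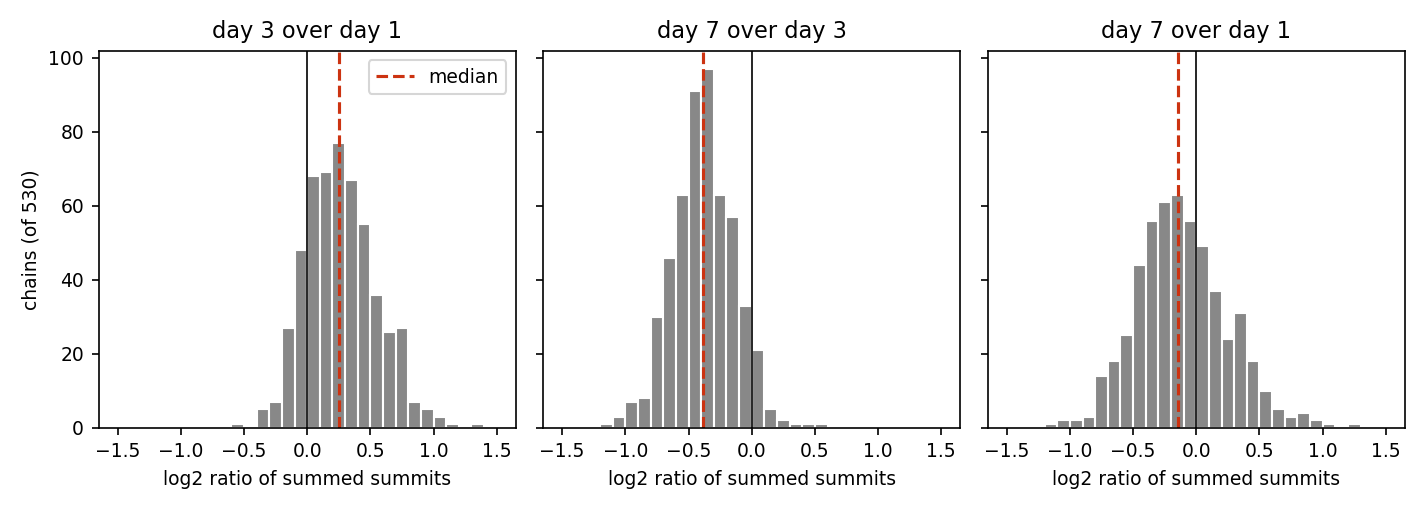
Distribution over the 530 chains of the log2 ratio of summed scaled summits between 2 induced days, in bins of equal width, with the number of chains on the vertical axis. The solid line marks no difference and the dashed line the median, which corresponds to ratios of 1.19, 0.767 and 0.906 from left to right.

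Neighbours within a chain often had the same highest day. In 199 chains (37.5%) every member was highest on the same day, on day 3 in 180 of them, on day 1 in 17 and on day 7 in 2. For chains of 3 the share was 39.8%, against 25.1% of the triples of sustained gains 10 to 100 kb apart. Most of this was agreement on day 3, in 35.6% of these chains and 20.5% of the triples. Day 3 was the highest in 66.1% of all members of chains of 3, and a commoner day gives more agreement by itself. The share to be had from that alone was not worked out. Every member was lower on day 7 than on day 3 in 328 chains (61.9%), and every member was higher in 6. Taken singly, 84.9% of members and 77.3% of all sustained gains were lower on day 7. A common direction gives agreement by itself here too, and the share from that alone was not worked out. The likeness of successive sustained gains declined steadily with distance. Pairs up to 1 kb apart had the same highest day in 62.9% of 533 cases, pairs 2 to 5 kb apart in 58.6%, pairs 5 to 10 kb apart in 52.0%, and pairs 100 kb to 1 Mb apart in 42.6%. Pairs with both regions highest on day 3 made up much of this decline, from 49.2% up to 1 kb to 31.5% at 100 kb to 1 Mb. The median absolute difference of the day 3 to day 7 step went from 0.24 on the log2 scale up to 1 kb to 0.32 at 5 to 10 kb and 0.36 at 100 kb to 1 Mb. These differences are near the counting error of a single member's step, a median of 0.29, and were not corrected for it. Regions open on every day showed a similar decline in the share with the same highest day, from 63.1% up to 1 kb to 41.7% at 100 kb to 1 Mb. On either side of the 10 kb limit the share of sustained gains with the same highest day was 52.0% at 5 to 10 kb and 50.2% at 10 to 20 kb.

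**Figure D4:**
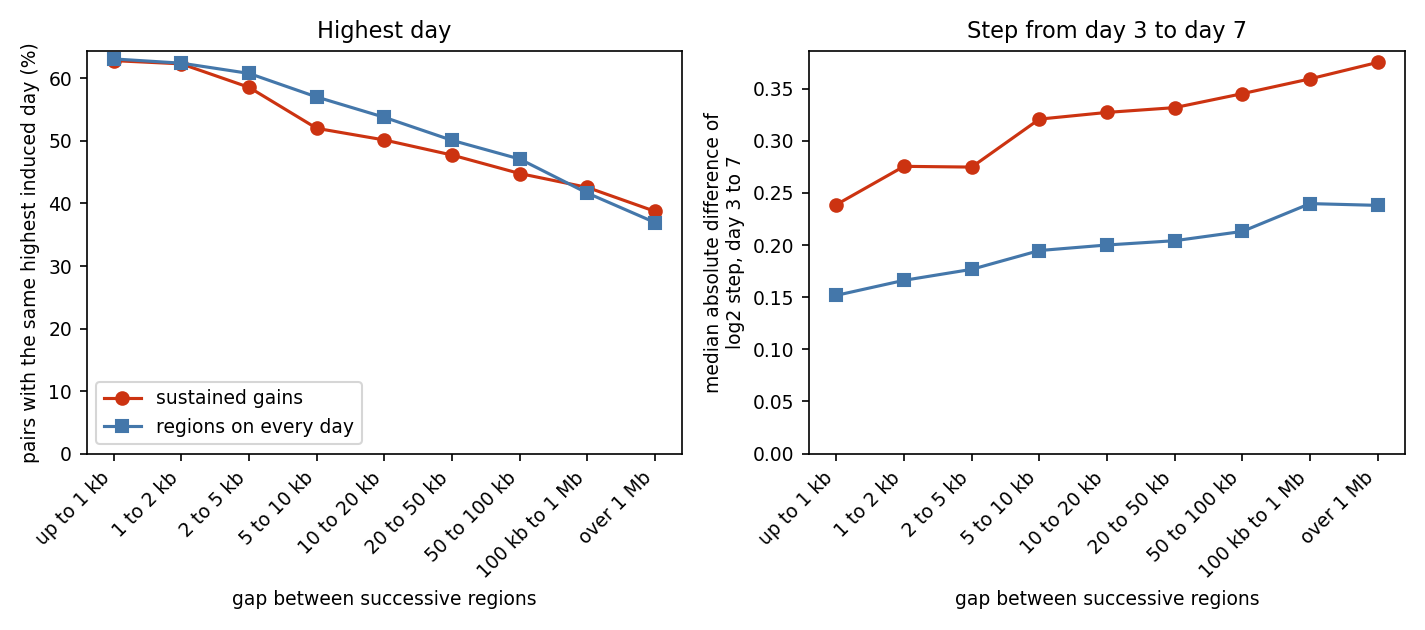
Likeness of successive regions on a chromosome by the gap between them, for sustained gains and for regions open on every day. The left panel gives the share of pairs with the same highest induced day, which goes from 62.9% to 38.7% in sustained gains, and the right panel the median absolute difference between the pair's log2 steps from day 3 to day 7.

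Members of a chain differed more in height than in course, as did members at large. The tallest member was a median of 1.94 times the lowest on day 3, and up to 6.48 times. The same member was the tallest on all 3 induced days in 298 chains (56.2%). In chains of 3 the tallest on day 3 was the middle region in 129 of 402. The spread of steps within chains, an SD of 0.31 on the log2 scale for day 1 to day 3 and 0.32 for day 3 to day 7, was little above the counting error of 0.29 for each. Between chains the SD, after that within chains had been taken off, was 0.21 and 0.16, or 31.3% and 20.8% of the variance. For day 3 height the within-chain SD was 0.55 and the between-chain SD 0.29, or 21.6% of the variance. Over all members regardless of chain, the SD was 0.62 for height and 0.38 and 0.36 for the steps.

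The chains of 5 or more numbered 21 and are named here together with the tallest, shortest and longest of the smaller chains. Of these 21, 15 held no region with a day 0 peak, 20 were highest on day 3 by summed summit, and 20 had an interval of day 7 over day 3 below 1. By the authors' fold 19 of these 20 were below 1, and 20 of all 21. Of all 530 chains, 76.8% held no region with a day 0 peak and 80.0% were highest on day 3. An interval of day 7 over day 3 below 1 was found in 63.4% of them. Longer chains sum more regions, and more reads give narrower intervals. For day 3 over day 1, 13 of all 21 (61.9%) were above 1 by fold. An interval of day 3 over day 1 above 1 was found in 13 of the 21, against 44.3% of all 530 chains. By fold 8 of these 13 (61.5%) were above 1, a share like the 61.9% of all 21. The 5 that turned were those on chromosome 17 from 34206806, chromosome 2 from 54603743 and from 100804789, chromosome 20 from 45753609 and chromosome 6 from 38229713, at 0.934 to 0.980 by fold. Of the 116 members of the 21 chains, 86 (74.1%) were highest on day 3. A lower summit on day 7 than on day 3 was seen in 104 (89.7%). Among all sustained gains these shares were 58.5% and 77.3%.

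The chain at chr13:97907085-97933117 held 7 members within 26.03 kb and was the most uniform of the 9 largest. Its members carried 45, 45, 43, 47, 31, 33 and 38 summit reads on day 1, in order along the chromosome. On day 3 they carried 64, 66, 58, 80, 62, 60 and 50, and on day 7 48, 51, 49, 53, 36, 31 and 28. By scaled summit all 7 were highest on day 3, and none of the summits stood out, since the scaled day 3 values ran from 7.43 to 11.9. By the authors' fold the first 3 were not highest on day 3, with 3.19, 3.13 and 2.55 against 3.30, 3.19 and 2.81 on day 1. Summed over the chain, day 3 was at 1.40 times day 1 (1.205 to 1.63) and day 7 at 0.742 of day 3 (0.638 to 0.861). The nearest day 0 peak lay 23.1 kb away.

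The other chain of 7, at chr5:107132522-107168111, was built around 2 tall regions. The region at chr5:107144146-107145757 had scaled summits of 23.3, 22.2 and 15.6 on days 1, 3 and 7, and the region at chr5:107156029-107157485 had 18.4, 17.7 and 9.51. Both were highest on day 1. The last member, chr5:107167167-107168111, instead went from 23 reads on day 1 to 60 on day 3, a ratio of 2.34 after scaling, and 41 on day 7. The first, chr5:107132522-107132827, was the weakest on days 1 and 3, with 22, 23 and 32 reads, and on day 7 chr5:107150179-107151188 was, with 25. Over the whole chain day 3 was at 1.07 of day 1 (0.946 to 1.22), so no difference between these days was detectable, and day 7 was at 0.702 of day 3 (0.612 to 0.805). No day 0 peak lay within 22.7 kb, and the stretch without one was 181 kb long.

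Of the 7 chains of 6 members, 2 held no day 0 peak in their span. At chr10:14082168-14117111 the fifth member was the tallest, with 31, 39, 35, 44, 113 and 39 reads on day 1. On day 3 these were 47, 56, 70, 82, 135 and 52. All 6 were higher on day 3 than on day 1 on the scaled measure, with a chain ratio of 1.32 (1.14 to 1.53). The chain at chr4:88441190-88456870 was compact, with 6 members in 15.7 kb, the first 3 of them separated by only 388 and 229 bp. Its first member, chr4:88441190-88442121, had scaled summits of 14.6 on day 1, 16.8 on day 3 and 6.88 on day 7, and stood at 0.410 of its day 3 summit on day 7 (0.280 to 0.589). Its neighbour 388 bp away stood at 0.927 (0.582 to 1.47).

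Among the chains of 6 with day 0 peaks in their span, that at chr17:34206806-34238610 was tallest at its far end, with day 3 summits of 5.95, 8.03, 10.3, 8.33, 14.4 and 24.4. The last of these, chr17:34237363-34238610, was at 0.417 of day 3 on day 7 (0.306 to 0.561). The chain at chr2:152890632-152925077 differed along its length between days 1 and 3. Its first 4 members had 102, 71, 82 and 85 reads on day 1, 100, 73, 98 and 82 on day 3 and 47, 35, 52 and 38 on day 7, whereas the last 2 had 26 and 24 on day 1, 46 and 49 on day 3 and 33 and 35 on day 7. All 6 were lower on day 7 than on day 3. The chain as a whole was at 0.591 of day 3 on day 7 (0.503 to 0.692), the lowest of the 9 chains of 6 or more. At chr2:202938995-202975094 the first member went from 43 to 102 reads between days 1 and 3, and the third from 125 to 103. The chain at chr5:148766678-148796937 held the tallest summit among the chains of 6 on day 1, 23.7 times background at chr5:148768975-148770058, which was at 23.8 on day 3. At chr1:211775405-211813609, the longest chain, the first member was at 0.506 of day 3 on day 7 (0.337 to 0.747). The intervals of the other 5 all reached above 1, and the chain as a whole was at 0.807 (0.685 to 0.949).

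**Figure D5:**
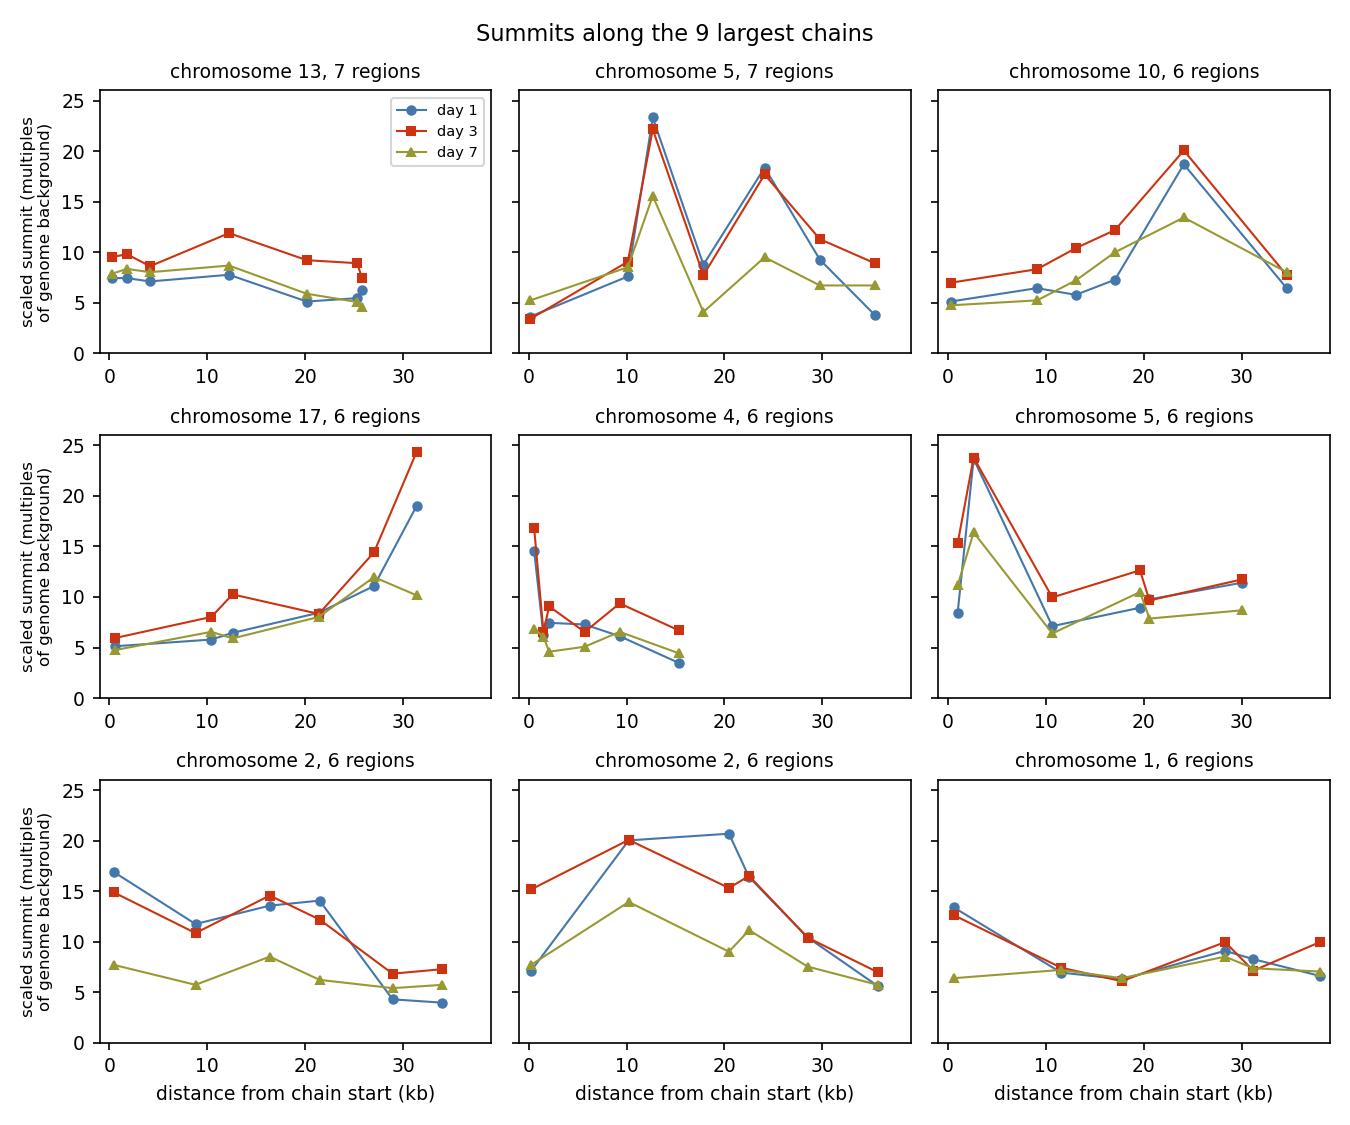
Scaled summit, in multiples of the genome-wide background, of each member of the 9 chains of 6 or more regions, against the distance in kb from the start of the chain, on days 1, 3 and 7. Lines join the members of a chain on 1 day. Day 7 lies below day 3 in 52 of the 56 members (92.9%), against 77.3% of all sustained gains.

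By scaled summit, chains of 5 were lower on day 7 than on day 3 with 1 exception. At chr12:76669128-76704315 all 5 members were highest on day 3, and the chain was at 1.56 times day 1 (1.30 to 1.87), the largest such ratio among the 21. Its second member, chr12:76678869-76679707, reached a fold of 10.5 on day 3. The chain at chr20:45753609-45775799 was the tallest of the 21 on day 3 by mean summit, at 15.8 times background. All 5 of its members were highest on day 3, and day 7 was at 0.609 of day 3 (0.527 to 0.704). The chain at chr10:105564495-105589725 had the lowest ratio of day 7 to day 3 among the 21, 0.562 (0.477 to 0.662). At chr6:38229713-38251350 lay the member with the highest lowest-day summit of all, chr6:38231918-38233024, with 163, 191 and 130 reads, or 27.0, 28.4 and 21.3 times background. Its nearest day 0 peak was 84.5 kb away. Also without a day 0 peak in their span were the chains at chr2:54603743-54617984, chr2:150036756-150057193, chr5:153623030-153653015, chr6:20866059-20878211, chr6:52182578-52199022 and chr7:135446371-135465444, whose day 7 sums were at 0.628 to 0.733 of day 3. The chain at chr2:100804789-100831016 spanned 1 region with a day 0 peak and was at 0.712. The exception was chr17:39675272-39696873, a chain of low summits, where 4 of 5 members were highest on day 7. There day 7 was at 1.08 of day 3 (0.886 to 1.31), an interval that holds 1. By the authors' fold the direction turned, at 0.909, and the only member highest on day 7 was chr17:39695343-39695679.

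Of all 530 chains the highest mean summit on day 3 was at chr19:17152260-17157519, where 3 members within 5.26 kb had mean summits of 19.5, 20.8 and 9.12 on days 1, 3 and 7. All 3 were near the same height on day 3 and lower on day 7, with 116, 147 and 157 reads on day 3 and 49, 59 and 59 on day 7. At 0.438 of day 3 (0.364 to 0.526) this chain had the lowest ratio of all 530 by scaled summit. By the authors' fold it was at 0.926, with folds of 2.46, 3.09 and 3.28 on day 3 and 2.44, 2.86 and 2.87 on day 7. Its mean local background was 6.97 times the genome-wide one on day 3 and 3.24 times on day 7. The chains at chr11:27817494-27834435, chr1:201706559-201718025, chr19:16208609-16225950 and chr16:56874976-56896262 were the other 4 named for their height, with mean day 3 summits of 19.3, 18.6, 17.6 and 17.3. Of these the one on chromosome 11 had high folds as well, 8.73, 7.88 and 8.25 on day 3, and no day 0 peak within 26.5 kb. Besides the member on chromosome 6, the regions with the highest lowest-day summit were chr16:56894433-56896262, chr11:27817494-27818810, chr12:48415303-48416176 and chr20:36737975-36738983. Their day 7 summits ran from 19.5 to 19.7 times background.

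In the 5 shortest chains members filled a larger part of the span than in most, though gaps of up to 1018 bp were left. At chr5:163753299-163755211 the members filled 85.3% of 1.91 kb, with gaps of 181 and 100 bp. Those at chr3:60883214-60885790, chr8:121825372-121828006, chr7:7829689-7832429 and chr10:22215495-22218340 filled 55.9% to 77.1%. The longest chains of 3 or 4 without a day 0 peak were spread more thinly. At chr14:54038452-54066867 the 4 members had 52, 110, 30 and 145 reads on day 3, were all highest on that day and filled 11.5% of 28.4 kb. At chr17:57569043-57592019 the chain was at 1.503 times day 1 on day 3 (1.27 to 1.79). The other 3, at chr9:108420591-108444413, chr5:127270361-127293262 and chr5:131764658-131787443, were at 1.05, 1.11 and 1.31 times day 1.

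Chains were found on every chromosome with a sustained gain. The share of sustained gains that were members was lowest on chromosome 19, with 21 of 357 (5.88%, 3.68 to 8.85), and next lowest on chromosomes 22 and 21 with 6.25% and 6.90%. It was highest on chromosome 11, with 118 of 962 (12.3%, 10.3 to 14.5), followed by chromosomes 12 and 5 with 11.6% and 11.4%. The most chains lay on chromosome 1, with 58. Members of 1 chain are not independent of each other, so these intervals are too narrow, and those of most chromosomes overlapped.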

How the data were processed

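The data are 1 deposited file of narrowPeak layout that joins 4 peak lists of ATAC-seq on 8 samples, with 411408 peaks. The submitters' processing notes name Bowtie2, deepTools, MACS2 2.1.1.20160309 and hg19. The sources used here do not give how reads were filtered, shifted for the transposase or pooled over replicates. Per peak the authors deposited a score, a fold (a ratio of summit to local background in the same list), a -log10 p-value, a -log10 q-value and the summit offset in bp.

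Summit reads were recovered from the deposited fold and -log10 p-value as the whole number that fits both, with fold as (reads + 1) / (background + 1) and a Poisson p. Whole numbers matched within 0.000863 in -log10 p, and the next best were off by at least 0.0272. For each list the commonest background value was taken as genome-wide. Intervals at 95% are conditional binomial (exact) for ratios and Clopper-Pearson (exact) for shares. PCR copies would make the former too narrow. Weighted references are means over strata of chromosome and 5 classes each of width and highest summit. They stand in for repeated draws. The members, limits and comparisons were chosen with earlier results of these data known. Named chains are those of 5 or more regions and, among smaller ones, the 5 tallest, 5 shortest and 5 longest without a day 0 peak, plus the 5 members with the highest lowest-day summit. The members' sequences and genes were not analysed here. The steps were tested on simulated data. Python 3.11.15, NumPy 2.4.6, pandas 2.3.3, SciPy 1.17.1 and matplotlib 3.10.9 were used.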

Additional observations from a re-analysis of the deposited data

How the results depend on the processing

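No paired analysis was possible because the file holds 1 list per day and no value per replicate, and for the same reason leaving out each replicate was not run. The number of chains and of members was 153 and 479 when joined up to 5000 bp, 1180 and 4251 up to 20000 bp, and 254 and 812 with a fold of at least 3. Without the day 7 list they were 1076 and 3683, and without the day 1 list 959 and 3315, where a gain needed fewer lists. Counts under the other alternatives stayed within 1.5 times. The share of members highest on day 3 was 74.1% up to 5000 bp, 64.8% up to 20000 bp, 72.1% with a -log10 q of at least 5, 75.4% with a fold of at least 3, 75.7% when scaled to regions open on every day, and 47.5% by the authors' fold. The median log2 step from day 1 to day 3 was 0.31 with a fold of at least 3, 0.38 scaled to regions open on every day and 0.061 by fold. From day 3 to day 7 it was -0.42 up to 5000 bp, -0.34 up to 20000 bp, -0.41 with the stricter q, -0.42 with a fold of at least 3, -0.34 scaled to regions open on every day and -0.14 by fold. The ratio for another sustained gain within 10 kb was 1.497 with the stricter q, 1.29, 1.40 and 1.38 without the list of day 7, 1 or 3, and 1.71 against regions open on every day alone. No alternative turned the direction of the median steps or of the ratio for another sustained gain. The share highest on day 3 was not judged by direction. By fold it was 47.5% (45.2 to 49.9), so day 3 was no longer the highest in most members. It was also below the share of gains alone or in pairs. By fold the chain on chromosome 7 from 135446371 had a day 7 to day 3 ratio of 1.05, the opposite direction to its 0.733, and 17 other chains of 5 or more stood at 0.761 to 0.999, all nearer to 1 than by scaled summit. The chain on chromosome 17 from 39675272, whose interval held 1, went from 1.08 to 0.909 by fold, and that on chromosome 9 from 108420591 from 0.834 to 1.06. The cause was not tested.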

Other observations

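Some chains kept a course unlike the rest; they were picked after their values had been seen, so their intervals do not allow for the choice among 530 chains. In 2 chains every member was highest on day 7 and the interval of day 7 over day 3 lay above 1. They were chr4:77723558-77733581, at 1.44 times day 3 (1.09 to 1.91), and chr9:107826531-107832457, at 1.32 (1.02 to 1.72). Both were low, with mean summits of 4.66 and 5.45 times background on day 3. By scaled summit the rise from day 1 to day 3 was steepest at chr13:34611586-34619327, which already had peaks on day 1. It stood at 2.55 times day 1 on day 3 (1.94 to 3.404) and at 0.914 of day 3 on day 7 (0.739 to 1.13). By the authors' fold its day 3 stood at 1.509 times day 1. The chains at chr1:62728880-62738326 and chr20:49956070-49971785 followed with 2.24 and 2.103 times day 1. An early course was seen at chr10:112409564-112426846, where all 3 members were highest on day 1 and the chain was at 0.683 of day 1 on day 3 (0.555 to 0.840).

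The chain farthest from any day 0 peak was small. At chrX:96563121-96567033 its 3 members lay in 3.91 kb, 622 kb from the nearest day 0 peak and inside a stretch of 3727 kb without one. All 3 were highest on day 3. The chain at chr6:20866059-20878211, with 5 members, lay in such a stretch of 882 kb. The most even chain was chr8:28681524-28685877, whose 3 members differed by a factor of 1.04 on day 3.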
